A study of Rattus norvegicus with 9 samples.

Results

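Axon guidance ligands and receptors are the secreted and membrane proteins that steer growing nerve fibres, and 57 genes found under their names were measured in whole skull and limb bone of the rat. They were matched by symbol in the platform's probe-to-gene annotation, as the semaphorins Sema3 to Sema7, plexins, neuropilins, ephrins, Eph receptors, Slits, Robos, netrins and symbols that begin with Unc5, and they were 57 of 14217 genes with a probe set that names 1 gene only. The 57 genes had 96 such probe sets of 31042 on the array, and each gene was read from the one with the highest mean log2 signal over the 9 arrays. Unc50, a membrane trafficking protein, and Unc5cl, a death domain protein, match the spelling but are not guidance receptors, which leaves 27 ligands and 28 receptors.

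Total RNA came from male CD rats of 110 g, with no treatment named, from the calvaria (the skull vault, called skull here, 4 arrays) and the ulna (a forelimb long bone, called limb here, 5 arrays), after soft tissue and sutures or epiphyses had been removed. Age was not among the details used here. Each extract came from a pool of several rats, so p-values measure the spread between pools of 1 site, and nothing in the labels says that a skull pool and a limb pool of the same number shared rats. The comparison asks whether bone that develops in membrane and bears little load differs in basal expression from bone that develops through cartilage and bears load. The study attributes its differences to embryonic cell lineage and not to the mode of ossification. With 1 bone per site, lineage, ossification and load cannot be told apart.

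Most guidance cues act over short distances through a receptor on the surface of the responding cell. Secreted semaphorins bind neuropilins, which signal through plexins, whereas the membrane semaphorins bind plexins directly. Ephrins are membrane ligands of Eph receptor tyrosine kinases, Slits bind Robos, and netrins bind Unc5 receptors as well as Dcc and neogenin. Several of the same proteins also act between osteoclasts and osteoblasts, in vessel growth and in the innervation of bone.

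The median deposited signal of an array was 33.01 to 36.59, and the highest was 5503 to 8616. The signal of a control transcript that the samples lack reached 8.34 after scaling, and this value is used below as the level of an absent transcript. Hoxa9, a positional gene of the limb, had a mean scaled signal of 2.81 ± 1.35 in the skull (SD, n = 4) and 69.6 ± 8.66 in the limb (SD, n = 5), which bears on the labels of limb 1 to 4, where the tissue field names the calvaria and the title and source name do not. Of 10 measured positional genes of the limb 9 were called lower in the skull, and of 8 of the skull 5 were called higher. The study lists most of these genes as differing in these samples, so these counts are not a separate check of the labels. Actin 3' to 5' log2 ratios, a sign of RNA quality, lay between 0.75 and 1.03 in the skull and between 0.57 and 0.86 in the limb.

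More guidance genes were higher in the skull than lower. A gene was called where limma's adjusted p was below 0.05 and the log2 difference, skull minus limb, was at least 1, which is 2-fold. Of the 57 genes, 14 were called (24.6%), against 8.07% of all genes. The skull was higher for 12 of them (21.1%), against 3.59% of all genes, and lower for 2 (3.51%), against 4.47%. By adjusted p alone 28 passed (49.1%), against 32.3% of all genes. Of these 22 were higher and 6 lower, where 14.1% and 18.1% of all genes were. The arrays of the 2 sites did not overlap for 29 genes (50.9%), against 28.9%. The median difference of the 57 was 0.54 on the log2 scale and that of all genes was -0.02. Without Unc50 and Unc5cl, 12 of 55 were higher and 1, Plxnc1, was lower. In whole bone, fewer cells of a type and less RNA per cell cannot be told apart, and this holds for every difference below.

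The called genes were spread over ligands and receptors. Of the 27 ligands 5 were called higher and 0 lower, and of the 28 receptors 7 were higher and 1 was lower. No ephrin, EphA receptor, Robo or netrin was called, although 6 of these 18 genes passed the adjusted p with a smaller difference. Signals were low for many members. 9 of the 57 (15.8%) had means at both sites at or below the absent control, against 11.1% of all genes, and 42 were above it on every array.

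**Figure D1:**
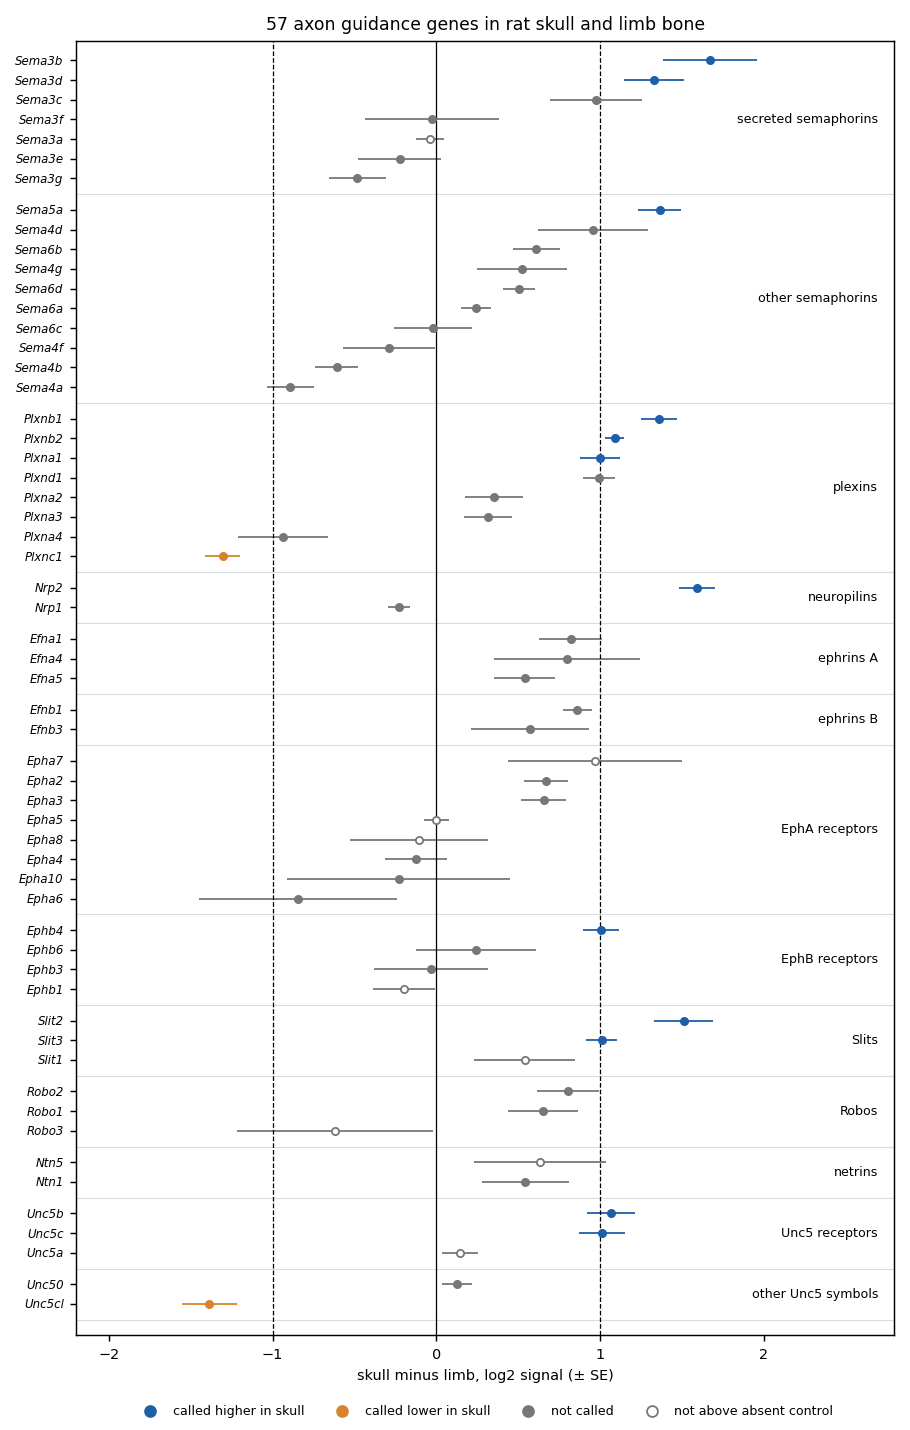
The log2 difference in signal between skull and limb is plotted for each of the 57 genes with its standard error, grouped by role, with broken lines at the 2-fold threshold and open points for genes with neither mean above the absent control. The 12 genes called higher in the skull lie among the semaphorins, plexins, neuropilins, EphB receptors, Slits and Unc5 receptors, from 1.00 (Plxna1) to 1.67 (Sema3b), and Plxnc1 and Unc5cl lie below -1.

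The secreted semaphorins were split, with 2 of 7 called higher in the skull and none lower. Sema3b and Sema3d, ligands of the neuropilins, were the called genes. Sema3b had scaled signals of 50.9, 69.6, 72.8 and 73.7 on skull 1 to 4 and 20.3, 27.7, 31.3, 18.6 and 11.6 on limb 1 to 5. Every skull array was above every limb array, skull 1 was the lowest of the skull, and the difference was 1.67 ± 0.29 (SE, adjusted p = 0.00206). Sema3d read 214, 325, 337 and 241 in the skull and 113, 108, 79.5, 114 and 139 in the limb. These groups did not overlap either, with a difference of 1.33 ± 0.18 (SE, adjusted p = 0.000605).

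Sema3c, which lay just outside the 2-fold threshold, differed among the limb arrays. It read 170, 149, 100 and 170 in the skull and 112, 107, 55.8, 57.7 and 55.1 in the limb, so that limb 1 and 2 were above skull 3. Its difference was 0.98 ± 0.28 (SE, adjusted p = 0.0257). Sema3a, a repellent of sensory axons that has also been studied in osteoblasts, was at 0.98 to 1.90 in the skull and 0.99 to 2.86 in the limb. All of these values are below the absent control, so its level was not measured at either site. Sema3e, the ligand of Plxnd1, read 16.1 to 34.3 in the skull and 21.7 to 35.9 in the limb, with a difference of -0.22 ± 0.25 (SE, adjusted p = 0.547). The other members, Sema3f and Sema3g, had differences of -0.03 and -0.48 and did not pass the adjusted p.

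Of the 10 semaphorins with a membrane anchor, 1 was called higher and none lower. Sema5a, a membrane semaphorin with thrombospondin repeats, read 260, 293, 413 and 283 in the skull and 116, 124, 105, 132 and 119 in the limb. The lowest skull array (260) was far above the highest limb array (132), and the difference was 1.37 ± 0.13 (SE, adjusted p = 9.07e-05). The study also lists Sema5a as differing in these samples, so this is the same evidence and not a second line of it. Sema6d, a ligand of Plxna1, read 598, 620, 790 and 648 in the skull and 474, 497, 404, 498 and 459 in the limb. It passed the adjusted p without reaching 2-fold, at 0.51 ± 0.10 (SE, adjusted p = 0.00336).

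Sema4a and Sema4b, both membrane semaphorins, went the other way. Sema4a, known from immune cells, read 125, 136, 101 and 158 in the skull and 190, 250, 235, 274 and 248 in the limb. The groups did not overlap, and the difference of -0.89 ± 0.14 (SE, adjusted p = 0.00136) was short of 2-fold. Sema4b was also lower on every skull array (205 to 293) than on any limb array (322 to 432), at -0.61 ± 0.13 (SE, adjusted p = 0.00694). Sema4d, a ligand of Plxnb1 that osteoclasts make and that restrains osteoblasts, read 37.2, 35.4, 43.0 and 53.5 in the skull and 29.8, 36.9, 21.7, 11.5 and 16.9 in the limb. Limb 2 was above skull 2, and its difference of 0.96 ± 0.34 (SE) did not pass (adjusted p = 0.0578). Of the others, Sema6b passed the adjusted p at 0.61, and Sema4f, Sema4g, Sema6a and Sema6c did not pass.

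Plexins, the signalling receptors of semaphorins, held 3 genes called higher in the skull and 1 called lower among 8. Plxnb1, the receptor of Sema4d, read 212, 216, 271 and 256 in the skull and 80.3, 103, 93.7, 104 and 83.3 in the limb. Its lowest skull array was above its highest limb array by more than the whole range of either site, and the difference was 1.36 ± 0.11 (SE, adjusted p = 4.25e-05). Plxnb2, which like Plxnb1 binds membrane semaphorins, read 567, 620, 689 and 632 in the skull and 298, 308, 281, 292 and 291 in the limb. The limb arrays lay close together, from 281 to 308, and the difference of 1.09 ± 0.06 (SE) had the smallest adjusted p of the 57 genes (1.41e-05). Plxna1, a partner of neuropilins and the receptor of Sema6d, was close to the threshold at 1.00 ± 0.12 (SE, adjusted p = 0.000284), with 131, 160, 153 and 153 in the skull and 90.1, 72.5, 84.1, 64.7 and 63.9 in the limb.

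Plxnd1, the receptor of Sema3e and a plexin of endothelial cells, stood just on the other side of the threshold. It read 294, 306, 296 and 328 in the skull and 146, 166, 124, 168 and 169 in the limb, a difference of 0.99 ± 0.10 (SE, adjusted p = 9.87e-05). Plxna1, Ephb4 (1.00), Slit3 (1.01) and Unc5c (1.01) were the called genes just inside the threshold. Plxnc1, the receptor of Sema7a, was the plexin with the opposite direction. It read 59.8, 51.3, 49.1 and 43.7 in the skull and 134, 124, 107, 131 and 131 in the limb, and every skull array was below every limb array, at -1.30 ± 0.11 (SE, adjusted p = 4.46e-05). Sema7a itself had no probe set named here. Plxna4, a receptor of Sema3a and Sema6 proteins, passed the adjusted p with lower signal in the skull, at -0.94 ± 0.27 (SE, adjusted p = 0.0283), and Plxna2 and Plxna3 did not pass. The skull mean of Plxna4, 11.2, was near the absent control, and its second probe set gave -0.004 ± 0.56 (SE).

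The 2 neuropilins, co-receptors of secreted semaphorins and of vascular endothelial growth factors, went in opposite directions. Nrp2, which binds Sema3f and is known from veins and lymphatic vessels, read 1164, 1436, 1464 and 1474 in the skull and 415, 526, 406, 521 and 432 in the limb. The groups were far apart, and its difference was 1.59 ± 0.11 (SE, adjusted p = 2.15e-05). Nrp1, which binds Sema3a, read 361, 426, 433 and 437 in the skull and 463, 465, 492, 479 and 524 in the limb. Every skull array was below every limb array, but the difference was small, at -0.23 ± 0.07 (SE, adjusted p = 0.0303). Skull 1 was the lowest skull array for both genes on these probe sets. On the second probe set of Nrp1 skull 1 was the highest skull array, at 444 against 379 to 403. The sites overlapped there, with 430 to 491 in the limb and a difference of -0.19 ± 0.06 (SE).

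**Figure D2:**
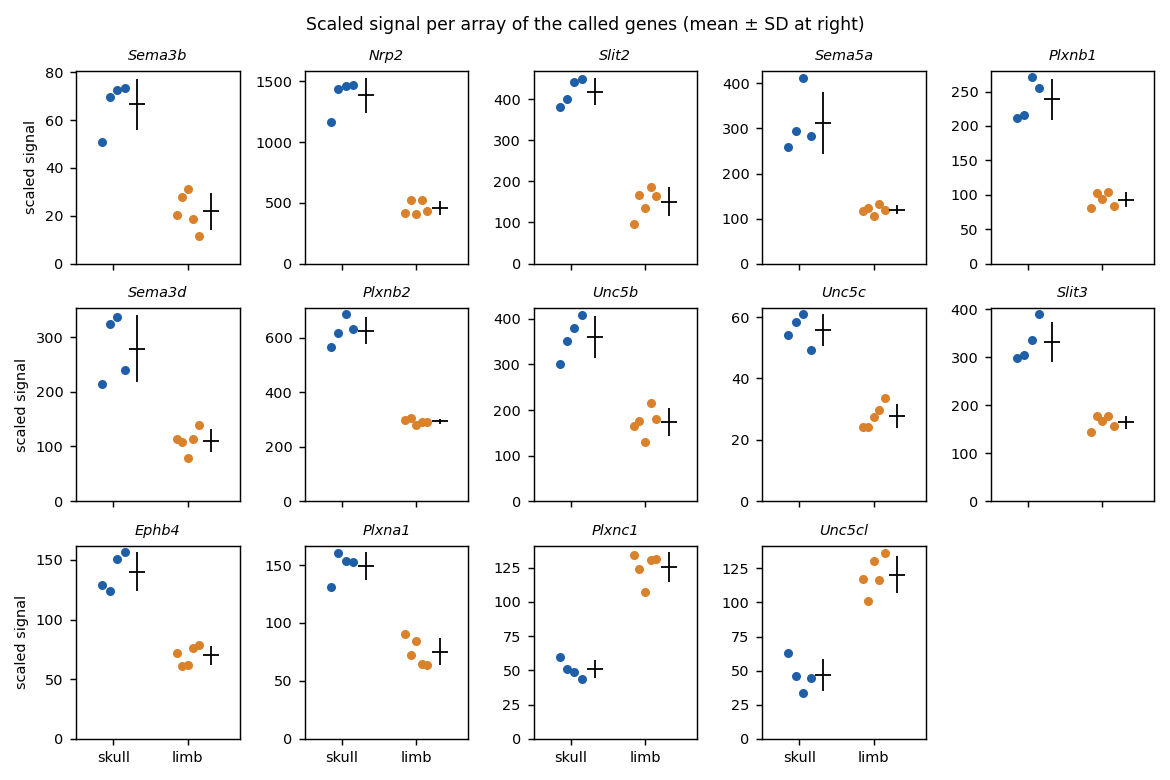
Scaled signal is plotted for each array of the 14 called genes, in order of their difference, with skull arrays in blue, limb arrays in orange and the mean ± SD of each site to the right of its points; each panel starts at 0. No panel has a skull array within the range of the limb arrays, and Plxnc1 and Unc5cl are the panels with the limb above the skull.

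The letters upstream of these receptors were compared where a RefSeq gene start was found. A window of 250 bases before the annotated start was taken on the GRCr8 assembly for 43 of the 57 genes, of which 9 were called, 7 higher and 2 lower. The windows of the 3 called genes with the smallest adjusted p are printed because they show how unlike these upstream regions are in sequence: Plxnb2 at chr7:122137949-122138198 on the minus strand, Nrp2 at chr9:71617004-71617253 on the plus strand and Plxnb1 at chr8:118622911-118623160 on the plus strand. Each is upstream of the first exon, runs 5' to 3' towards the gene and has the GC box GGGCGG, on either strand, in capitals.
Plxnb2: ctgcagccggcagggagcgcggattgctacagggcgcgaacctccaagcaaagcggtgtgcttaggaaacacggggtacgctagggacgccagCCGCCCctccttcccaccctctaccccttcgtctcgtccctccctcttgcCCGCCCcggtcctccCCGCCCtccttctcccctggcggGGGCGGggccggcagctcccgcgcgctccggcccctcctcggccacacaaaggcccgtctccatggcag
Nrp2: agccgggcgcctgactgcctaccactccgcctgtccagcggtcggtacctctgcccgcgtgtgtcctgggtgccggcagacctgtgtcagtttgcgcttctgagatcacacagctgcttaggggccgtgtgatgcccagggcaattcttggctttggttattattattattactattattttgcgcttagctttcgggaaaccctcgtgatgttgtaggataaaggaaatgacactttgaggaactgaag
Plxnb1: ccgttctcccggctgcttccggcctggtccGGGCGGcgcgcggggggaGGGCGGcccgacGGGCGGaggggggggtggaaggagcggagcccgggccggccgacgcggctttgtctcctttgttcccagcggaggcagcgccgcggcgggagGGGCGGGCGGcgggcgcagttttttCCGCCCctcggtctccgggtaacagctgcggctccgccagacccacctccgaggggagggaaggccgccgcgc

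The Plxnb2 window held 4 GC boxes at 71.6% G and C and that of Plxnb1 held 6, of which 1 pair overlaps, at 78.0%, whereas the Nrp2 window had none at 52.8%. The median G and C of all 27457 windows was 52.0%. A GC box lay in 5 of the 7 windows of genes called higher, in both windows of genes called lower and in 19 of the 34 windows of members not called, against 32.4% of all windows. The Runx motif (TGTGGT or TGCGGT, both strands) was in 0 of the 7, in 1 of the 2 called lower (Unc5cl) and in 7 of the 34, against 18.7% of all windows. The TCF motif (CTTTGAA or CTTTGTT) was in 1 of the 7 and 3 of the 34, against 9.31%, and the E-box (CAGCTG or CATATG) in 2 of the 7 and 8 of the 34, against 15.1%. These are matches of letters in 1 window per gene and are not binding sites.

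Of the 17 ephrins and Eph receptors 1, Ephb4, was called. All 5 ephrins had a difference above 0 and none was called. Efnb1, an ephrin B of osteoblasts and sutures, read 89.0, 103, 99.0 and 96.8 in the skull and 48.5, 52.3, 61.6, 54.4 and 50.4 in the limb. Its groups were well apart, at 0.86 ± 0.09 (SE, adjusted p = 0.000136), short of 2-fold. Efna1, a ligand of Epha2, passed the adjusted p at 0.82 ± 0.19 (SE, adjusted p = 0.01), with 101 to 136 in the skull and 49.5 to 91.1 in the limb. Efna4, Efna5 and Efnb3 did not pass (0.80, 0.54 and 0.57). Efna2 and Efnb2 had no probe set named here.

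Ephb4, the receptor of Efnb2 on veins and osteoblasts, was the called Eph receptor. It read 129, 124, 151 and 157 in the skull and 72.0, 61.2, 62.0, 76.2 and 78.5 in the limb, without overlap, and its difference was 1.00 ± 0.11 (SE, adjusted p = 0.000176). Of 8 EphA receptors none was called. Epha2, an ephrin A receptor of epithelia and bone cells, read 75.0, 119, 112 and 115 in the skull and 62.1, 68.9, 67.1, 64.6 and 63.3 in the limb. Skull 1 was closer to the limb arrays than to the other skull arrays, and the difference was 0.67 ± 0.14 (SE, adjusted p = 0.00481). Epha3 passed the adjusted p as well, at 0.66 ± 0.14 (SE, adjusted p = 0.00593). 4 of the 12 Eph receptors, Epha5, Epha7, Epha8 and Ephb1, had means at or below the absent control at both sites. Ephb2, which the study names, had no probe set named here.

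Of the 3 Slits, secreted ligands of Robos, 2 were called higher in the skull. Slit2, a repellent of many axons, read 381, 400, 442 and 450 in the skull and 96.0, 168, 136, 186 and 165 in the limb. Its lowest skull array was above its highest limb array by more than the range of either site, and the difference was 1.51 ± 0.18 (SE, adjusted p = 0.000267). Slit3, made by bone cells and known to act on the vessels of bone, read 299, 306, 337 and 390 in the skull and 145, 177, 167, 177 and 158 in the limb. It did not overlap, and was called at 1.01 ± 0.09 (SE, adjusted p = 7.62e-05). Slit1, the member best known from the nervous system, was not above the absent control.

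Of the 3 Robos, the receptors of Slits, 2 passed the adjusted p with higher signal in the skull and neither reached 2-fold. Robo2 read 89.4, 112, 128 and 74.2 in the skull and 61.6, 67.1, 43.5, 63.7 and 50.1 in the limb, and passed at 0.81 ± 0.19 (SE, adjusted p = 0.01). Robo1 read 35.0, 32.5, 30.1 and 51.1 in the skull and 19.5, 28.2, 20.2, 28.5 and 21.1 in the limb, and passed at 0.65 ± 0.21 (SE, adjusted p = 0.0446). Neither gene overlapped between the sites, although skull 4 was the highest array for Robo1 and the lowest skull array for Robo2. Robo3 had means below the absent control at both sites, with limb 2 and limb 4 above it, and Robo4, the endothelial Robo, had no probe set named here.

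**Figure D3:**
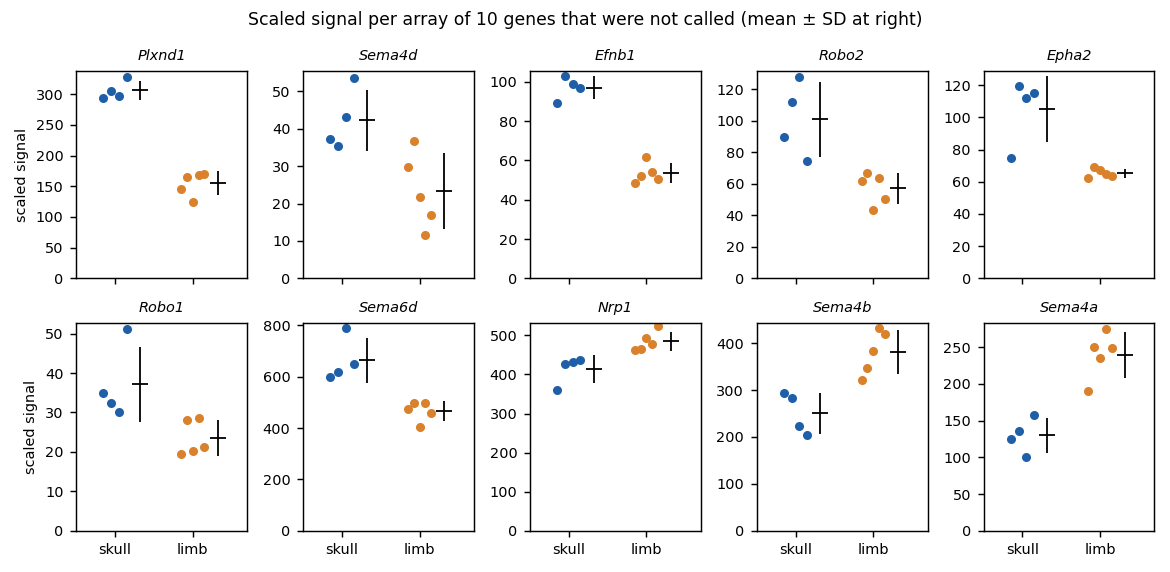
Scaled signal is plotted for each array of 10 genes that were not called, chosen after their values were seen, with skull arrays in blue, limb arrays in orange and the mean ± SD to the right of each site; each panel starts at 0. Plxnd1 and Efnb1 are apart without reaching 2-fold, Sema4d has limb 2 within the skull range, skull 1 of Epha2 lies near the limb arrays, and Nrp1, Sema4a and Sema4b are lower in the skull.

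Of the 3 Unc5 receptors, which carry the repulsive signal of netrins, 2 were called higher in the skull, and neither netrin was called. Unc5b, an Unc5 receptor of endothelial cells, read 301, 351, 381 and 409 in the skull and 166, 175, 129, 216 and 181 in the limb. The groups did not overlap, and the difference was 1.07 ± 0.14 (SE, adjusted p = 0.000542). Unc5c read 54.2, 58.4, 61.0 and 49.2 in the skull and 24.3, 24.1, 27.3, 29.7 and 33.5 in the limb, and was called at 1.01 ± 0.14 (SE, adjusted p = 0.000625). Unc5a was below the absent control on all arrays.

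Ntn1, the ligand, read 40.5, 28.1, 25.5 and 41.8 in the skull and 31.3, 31.3, 19.1, 18.6 and 17.5 in the limb. Limb 1 and 2 lay within the skull range, and the difference of 0.54 ± 0.27 (SE) did not pass (adjusted p = 0.159). Ntn5 had means below the absent control at both sites, with skull 3 above it. Of the symbols that only match in spelling, Unc5cl read 62.7, 46.1, 33.8 and 44.8 in the skull and 117, 101, 131, 117 and 136 in the limb, and was called lower at -1.39 ± 0.17 (SE, adjusted p = 0.000312). Unc50 was at 0.13 and did not pass.

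Further probe sets of the same gene give a second reading on the same arrays, though not from other animals. Of the 14 called genes 8 had at least 1 more probe set, 5 of these were called in the same direction on another, and none was called in the opposite direction. The second probe set of Nrp2, with a limb mean below the absent control, gave 1.80 ± 0.37 (SE), that of Unc5b 1.04 ± 0.10 and the next of Slit2 1.23 ± 0.15. All 3 were called. The third probe set of Slit2, with both means below the absent control, gave 0.61 ± 0.565 and was not called. Plxnb1 gave 1.43 ± 0.25 and 0.95 ± 0.23 on its other probe sets, and Sema5a gave 1.26 ± 0.32 on one of them. On a probe set of Sema5a that was not above the absent control the value was -0.46 ± 0.32. Plxnc1 kept its direction but not its call, at -0.74 ± 0.16, and the other probe set of Unc5c gave 1.03 ± 0.51. Those of Plxna1 gave 1.27 ± 0.42 and 0.16 ± 0.55, with limb means below the absent control. Efnb1, not called, had a second probe set that was, at 1.00 ± 0.26 (SE, adjusted p = 0.0229 over all probe sets). Those of Sema3f differed, at -0.03 ± 0.41 and 1.36 ± 0.66, and neither was called.

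**Figure D4:**
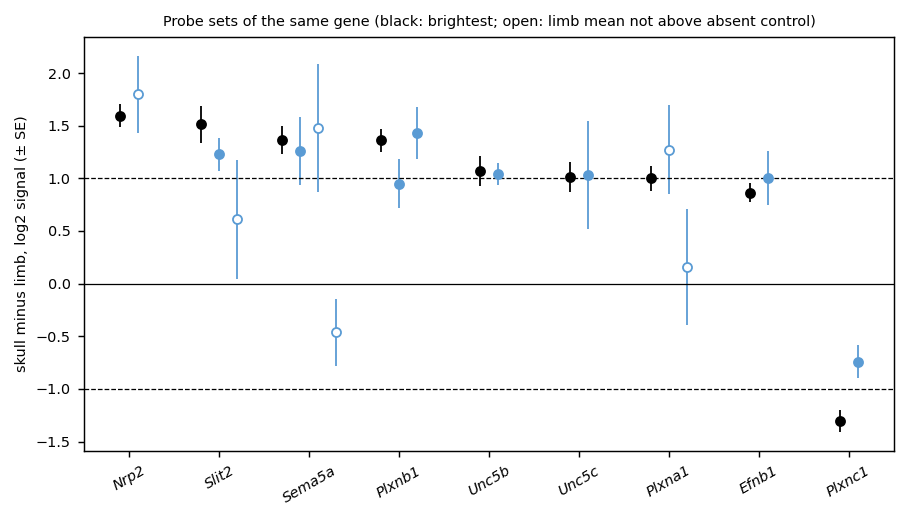
The log2 difference with its standard error is plotted for every probe set of the 8 called genes that have more than 1, and of Efnb1, with the probe set that stands for the gene in black and those with a limb mean not above the absent control open. The probe sets of Nrp2, Slit2 and Unc5b lie on the same side of 0, while 1 dim probe set of Sema5a lies at -0.46.

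Of the 14 calls 8 were kept under all 21 alternative settings, 9 of which left out 1 array. They were Nrp2, Plxnb1, Plxnb2, Slit2, Sema3b, Sema3d, Plxnc1 and Unc5cl. The genes near the threshold lost the call when single arrays were left out. Plxna1 read 0.97 without skull 2, 0.99 without skull 3, skull 4 or limb 2, and 0.95 without limb 4 or limb 5. Unc5c read 0.99 without skull 2, 0.965 without skull 3, 0.97 without limb 1 and 0.96 without limb 2. Ephb4 read 0.97 without skull 3, 0.95 without skull 4 and 0.96 without limb 2 or limb 3. Each of these 3 genes thus fell just short of 2-fold in several fits. Slit3 read 0.93 without skull 4, 0.97 without limb 1 and 0.995 without limb 5, and Unc5b 0.97 without limb 3. Sema5a was lost only where its probe sets were averaged (0.91), where Plxna1 lost the adjusted p as well (0.81, adjusted p = 0.0585). In the fits with an array left out the adjusted p stayed below 0.05, so that the 2-fold size was what was lost.

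In the other direction, Plxnd1 was called without skull 1 (1.01), skull 3 (1.01), limb 2 (1.02), limb 4 (1.03) or limb 5 (1.03). Sema3c was called without skull 3 (1.15), limb 1 (1.13) or limb 2 (1.11), and Sema4d without limb 2 (1.15, adjusted p = 0.0257). Plxna4 was called lower without skull 3 (-1.04) or limb 5 (-1.06). Epha7, dim at both sites, was called without limb 1 (1.46). The counts over the 9 fits with 1 array left out lay between 9 and 13 higher and between 2 and 3 lower.

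**Figure D5:**
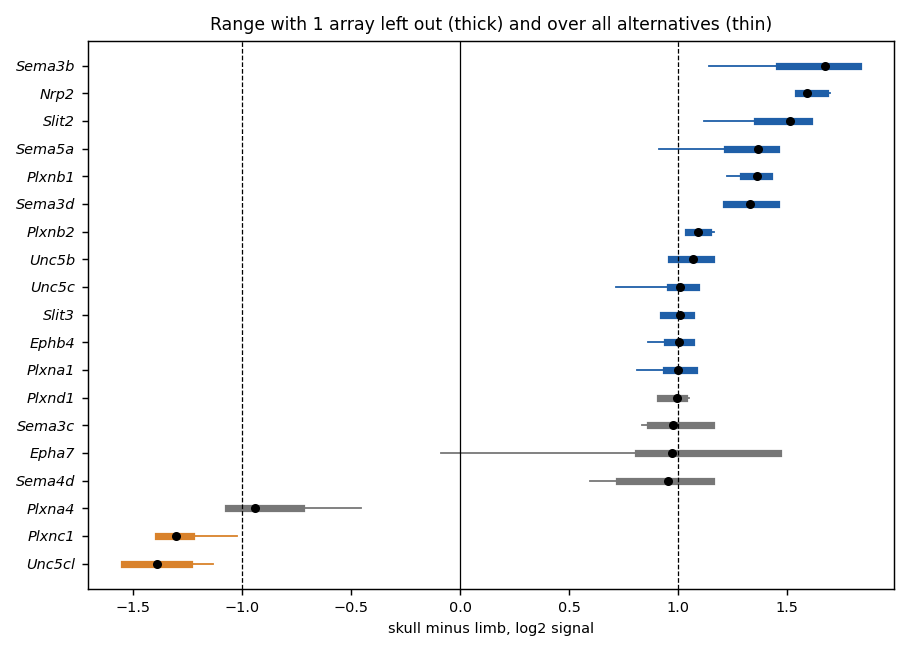
The log2 difference of the 14 called genes and of the 5 called only under an alternative is plotted as a black point, with a thick line for the range when 1 array is left out and a thin line for the range over all 21 alternatives; broken lines mark 2-fold. Nrp2, Plxnb1, Plxnb2, Slit2, Sema3b and Sema3d stay above 1, Plxnc1 and Unc5cl stay below -1, and Sema5a and the genes from Unc5b to Plxna4 in the plot cross a line.

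Of 33 measured partner receptors and other cues, 1 was called higher and 4 were called lower, where 3.59% and 4.47% of all genes were, with a median difference of 0.28 against -0.02 for all genes. By adjusted p alone 8 were higher and 5 lower, where 14.1% and 18.1% of all genes were. Boc, a cell surface receptor of hedgehog signals that also guides axons, was higher (mean signal 258 ± 28.2 in the skull and 100.2 ± 25.5 in the limb, SD, difference 1.39 ± 0.18, SE, adjusted p = 0.000393). Lrig1, a membrane regulator of receptor tyrosine kinases, was lower (-1.92), as was Reln (-1.23), a secreted guidance protein of the brain. The study also reports Reln as higher in limb bone, which is the same evidence. It reports the same direction in cultured cells of the 2 sites, by array and by PCR. Ret, the receptor kinase of the glial cell line-derived neurotrophic factor family, was at the floor on all 4 skull arrays and read 5.19 to 17.6 across the limb arrays. Hjv, a repulsive guidance molecule of skeletal muscle and liver, had mean signals of 5.08 in the skull, below the absent control, and 164 in the limb. Both were called lower, but the size of their difference depends on the floor. Neo1, a receptor of netrins and repulsive guidance molecules, passed the adjusted p at 0.63, and Dcc did not pass (0.78, adjusted p = 0.546).

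Of 66 measured intracellular mediators 3 were called higher and none lower, with a median of 0.18, where 3.59% and 4.47% of all genes were called. By adjusted p alone 23 were higher and 6 lower, where 14.1% and 18.1% of all genes were. Farp2, a guanine exchange factor that acts downstream of Plxna1 in axons and osteoclasts, was 1.32 ± 0.14 higher on the log2 scale (SE, adjusted p = 0.00014). Ablim3, an actin binding protein, was higher by 1.54 ± 0.24 (SE, adjusted p = 0.00114). Arhgef11, which binds the B plexins, was higher by 1.82 ± 0.55 (SE, adjusted p = 0.0326).

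Markers of several cell types of bone also differed between the sites. Over all genes 3.59% were called higher and 4.47% lower, and by adjusted p alone 14.1% were higher and 18.1% lower. Of 14 osteoblast and matrix markers 5 were called higher and none lower, with summed signals of 46240 to 60810 in the skull and 33180 to 43240 in the limb. Of 12 osteoclast markers 8 were called higher and none lower (14160 to 19200 and 8571 to 9197). Car2, of the same list, went the other way without reaching 2-fold, at -0.87 (adjusted p = 0.000172). Its skull arrays (1394 to 1837) were all below its limb arrays (2647 to 3131). Of 17 endothelial markers 4 were higher and 1, Vwf, lower (2896 to 3114 and 1973 to 2377), and of 16 nerve and Schwann cell markers 2 were higher and 1, Mbp, lower (1098 to 1168 and 862 to 989). The largest part of the nerve sums was Pmp22, which was not called, with means of 615 in the skull and 362 in the limb. Nefm, Gap43, Tubb3, Snap25 and Prph did not pass the adjusted p, whereas Nefl passed at 0.97. By adjusted p alone 10 osteoblast, 9 osteoclast, 13 endothelial and 5 nerve markers were higher, and 0, 1, 1 and 1 were lower. No marker of the osteoblast, osteoclast or endothelial list had both means at or below the absent control. In the nerve list 3 had, namely Nefl, Nefm and Snap25.

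Muscle and marrow markers went the other way. Of the 21 markers of skeletal muscle 18 were called lower and none higher, with sums of 856 to 926 in the skull and 10650 to 26550 in the limb. Myh1 went the other way without reaching 2-fold, at 0.59 (adjusted p = 0.00449). Its means were 601 in the skull and 399 in the limb, so this 1 reading made up most of the skull sum. Myh2 and Tnnc2, of the same list, had skull means of 7.73 and 6.41, below the absent control, and limb means of 1274 and 1475. Whether the Myh1 probe set reads that gene alone was not tested, so its signal is not taken as a level of Myh1 in skull bone. Mb, Mybpc1 and Ryr1 were at or below the absent control in the skull, with means of 5.03, 2.48 and 1.92. Of 11 erythroid markers 8 were lower, of 6 neutrophil markers 3 and of 7 megakaryocyte markers 7, with none higher. Of 12 fibroblast and periosteum markers 2 were higher, Fap by 2.75 and Pdgfra by 1.15, and 1, Tnmd, was lower. Of the remaining lists, smooth muscle and pericyte had 1 higher and 1 lower of 12, macrophage 1 higher of 8, lymphocyte 1 higher of 10, cartilage 2 lower of 12 and melanocyte 1 higher of 6. The melanocyte gene was Mlana, at 3.94, with means of 41.5 in the skull and 2.18 in the limb, the latter below the absent control. These lists are short and were not compared with all genes by a test. By adjusted p alone smooth muscle and pericyte had 5 higher and 1 lower, macrophage 3 higher and lymphocyte 1 higher and 2 lower. Cartilage had 1 higher and 3 lower and melanocyte 1 higher. The part of these cell types in the differences of the guidance genes was not tested.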

How the data were processed

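Total RNA of whole bone was labelled by the one-cycle protocol and hybridised to Affymetrix Rat Genome 230 2.0 GeneChips, 4 of skull and 5 of limb, grouped by title and source name. The authors deposited linear intensities, namely a MAS5 signal for each probe set of each array. The version is not given in the sources used here. The array signal, and not read depth, limits precision.

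Signals were divided by the array's median over 31042 non-control probe sets, multiplied by the mean of the medians (33.8), floored at the 10th percentile (2.51) and taken to log2, so that folds of dim genes are understated. The sites were compared with limma 3.58.1 in R 4.3.3 (lmFit, eBayes with an intensity trend), two-sided, with Benjamini-Hochberg adjustment over 14217 genes. Scaled signals are given without the floor, and levels of different probe sets were not compared as amounts of RNA. The script was tested on simulated data. Settings varied were the scaling, floor, filter, probe set, variance model, test, adjustment, replicate block and arrays used.

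The members and the lists of markers and pathway genes were chosen with earlier results of these data known. Named in full were all called members, members with a known part in bone, vessels or nerve and the one of highest signal in each group. Per list of pathway genes, up to 3 called genes of smallest adjusted p were named. For the cell type and positional lists counts were given, and not every gene of that rule was named. Sema3c, Sema3f, Sema4a, Sema4b, Sema6b, Plxna4, Plxnd1, Epha3 and the other genes outside that rule were named after their values were seen. Of 328 list entries 281 were measured. Promoter windows come from RefSeq on GRCr8, which was not used for coordinates of probe sets.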

Additional observations from a re-analysis of the deposited data

Results flagged for a closer look

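4 of 50 groups of values looked at had 1 array far from the others of its site by Dixon's criterion, where chance gives about 1 in 20. All 4 were the lowest value of the skull and fell on skull 1. Epha2 read 75.0 there and 112 to 119 on the other skull arrays. Nrp1 read 361.1 against 426 to 437, Nrp2 read 1164 against 1436 to 1474, and Sema3b read 50.9 against 69.6 to 73.7. Without skull 1, 13 members were called higher and 2 lower. The cause of the low values was not tested.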

How the results depend on the processing

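The counts of 12 higher, 2 lower and 28 past the adjusted p alone moved by no more than 1.5 times under any of the 21 alternatives run, and no difference of a called member changed sign. That of 8 uncalled members did in 1 alternative or more, among them Sema3f (-0.31 to 0.67) and Epha7 (-0.09 to 1.46). The number higher was 15 with signals as deposited, 13 after quantile normalization, 10 with the mean of all probe sets of a gene, 10 with array weights and 8 on log2(signal + 16), where the share called over all genes was 4.83% in place of 8.07%. It was 12 with a floor at the 25th percentile, without a floor, without dim probe sets, without the intensity trend, with the methods' test and with adjustment over all probe sets. With 1 array left out it was 9 to 13, the number lower 2 to 3 and the number past the adjusted p alone 24 to 29. The replicate block, fitted without limb 5, gave 11 higher, 2 lower and 20 past the adjusted p. It lost Plxna1 (0.95) and Slit3 (0.995) and gained Plxnd1 (1.03). The numbers are not known to pair the pools: deviations of arrays with the same number correlated at 0.03, -0.02, -0.03 and 0.05 across 14217 genes, and 2 of 4 skull arrays correlated best with the limb array of their own number. The median difference of the members (0.54) was 0.32 with the higher floor, 0.24 on log2(signal + 16) and 0.41 without skull 3. Averaging all probe sets took Sema5a to 0.91 and Plxna1 to 0.81, which then missed the adjusted p too (0.0585). On log2(signal + 16) Ephb4 was 0.86, Plxna1 0.87, Slit3 0.94 and Unc5c 0.71, with array weights Ephb4 was 0.97 and Slit3 0.96, and after quantile normalization Unc5c was 0.998. Pools are few, 1 strain, sex and weight was used, and whole bone mixes cell types. Genes at or below the absent control have no measured level.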

Other observations

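Limb 1 and limb 2 were both above limb 3 to 5 for 8 of the 57 members and both below them for 6. The same counts over all genes were not made, so these do not show an order particular to the members. Epha5, among the 8, was below the absent control on every array. Sema3c read 112 and 107 on them and 55.1 to 57.7 on the other limb arrays. Ntn1 read 31.3 and 31.3 against 17.5 to 19.1, Efna5 82.9 and 98.8 against 55.3 to 64.0, and Sema4d 29.8 and 36.9 against 11.5 to 21.7. The order was the opposite for Sema3f, which read 9.37 and 14.7 against 27.8 to 32.0, and for Sema4b, which read 322 and 347 against 382 to 432. The mean log2 signal of the skeletal muscle markers was 8.89 and 8.59 on limb 1 and 2 and 7.70 to 7.94 on limb 3 to 5. These genes were picked after their values were seen, the array values were not compared by a test, and the part of muscle in them was not tested.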
